A study of Schizosaccharomyces pombe with 12 samples.

Results

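The ends of fission yeast chromosomes I and II hold genes of metabolism, transport and adhesion, and the outermost places are taken by telomere-linked helicase genes. Here 10 such genes are described: aes1, abc3, alr2, eno102, aat1, say1, pcm2, cao2, adn2 and tlh2. They were taken by gene name from 2896 measured Schizosaccharomyces pombe genes, and each was read from the probe set, a group of oligonucleotides for 1 transcript, that was brightest over all arrays. All 10 were found, and all lie among the 40 outermost protein-coding genes of their chromosome end in the reference table. The probe sets were chosen by their mean level over the 12 arrays, and the genes were selected on earlier results of these same data, so levels are given as a description.

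The study compared fission yeast with the thermosensitive allele mis4-367 to fission yeast with mis4+, each after 2 h at 37 °C and before that shift, at 25 °C. Mis4 loads cohesin, the ring complex that holds sister chromatids together, onto DNA, and the question was which genes depend on cohesin. There were 3 independent cultures of each strain, which gave 4 groups of 3 arrays: mis4-367 at 37 °C, mis4+ at 37 °C, mis4-367 at 25 °C and mis4+ at 25 °C. All strains, mis4+ included, were of mating type h- and carried the plasmid ura4+-pREP2-res1, from which a C-terminal piece of Res1 was overproduced once thiamine was removed. That piece ties up Cdc10 and stops cells in G1, the phase before DNA replication, so every group describes arrested cells in minimal medium (EMM2) without thiamine. No group was kept at 25 °C for the 2 h of the shift. A change after the shift therefore cannot be told apart from a change over 2 more hours of arrest and Res1 overproduction.

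Subtelomeres of fission yeast are packed in repressive chromatin. Heterochromatin with methylated histone H3 lies next to the telomere repeats, and a wider region of condensed chromatin lies inside it, where many genes are weakly expressed in growing cells and respond to starvation, stress or sexual differentiation. The proteins in question have varied roles. Eno102 is an enolase of glycolysis, Alr2 an alanine racemase, Aat1 an amino acid transporter, Cao2 a member of the copper amine oxidase family and Pcm2 a methyltransferase that repairs damaged aspartyl residues. Abc3 is an ABC transporter of the vacuole membrane that is made when iron is scarce, and Adn2 is a transcription factor needed for cell adhesion. Aes1 was found as an enhancer of antisense RNA silencing, the Say1 protein of Saccharomyces cerevisiae removes acetyl groups from sterols, and Tlh2 is a helicase of the RecQ type.

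The median intensity per array over the 2896 genes was between 394 and 433. Replicate 3 of mis4+ at 37 °C stood apart. Over all genes, the SD of its log2 distance from its fellow replicates was 0.202, and for every other array this SD was between 0.0654 and 0.134. The dim signal of 2601 probe sets of another yeast gave a background level of 10.7 in intensity, or 3.42 on the log2 scale. All 5 listed M-cell genes, which mark h- cells, lay above it, with summed intensities of 4563 to 4930 in mis4-367 and 4733 to 5094 in mis4+ at 37 °C, and of 5530 to 6216 in mis4-367 and 5807 to 6848 in mis4+ at 25 °C. The 3 genes listed for the opposite mating type also lay above it, with sums of 323 to 335 in mis4-367 and 345 to 377 in mis4+ at 37 °C, and of 246 to 291 in mis4-367 and 278 to 283 in mis4+ at 25 °C. The M-cell sums hide differences between genes and rest mostly on mfm2 at 37 °C. Of the 5, 2 were called lower in mis4-367 at 37 °C and 1 at 25 °C, and none higher. At 37 °C mfm1 was at 352, 382 and 352 in mis4-367 against 680, 573 and 778 in mis4+. All 6 listed genes of cells outside G1 lay above the background level. Their sums were 2401 to 2496 in mis4-367 against 2827 to 3286 in mis4+ at 37 °C, and 2812 to 2994 in mis4-367 against 3207 to 3390 in mis4+ at 25 °C, so the strains did not overlap. The part of these cells in the results below was not tested, and in bulk RNA fewer cells of a kind and less RNA per cell cannot be told apart. Of 4 measured heat genes 3 were higher and 1 lower after the shift in each strain, and all 5 genes that thiamine represses were above background in every group.

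After the shift to 37 °C, 7 of the 10 genes were called higher in both strains: say1, pcm2, abc3, eno102, alr2, cao2 and aat1. The share of all genes called higher in both strains was not computed, so the shares below are per strain. In mis4-367, 8 of the 10 were higher and none lower (limma, adjusted p under 0.05), where 33.4% of all measured genes were higher and 23% lower, or 56.4% called in all. In mis4+, 8 of the 10 were higher and 1 lower, against 33.4% higher and 21.9% lower among all measured genes, or 55.3% called in all. The median log2 change of the 10 was 1.12 in each strain, beside medians of 0.04 over all genes in each. Because the 10 were selected on earlier results of these same data, these counts and medians describe them. They are no test against other genes. The remaining call was adn2 in mis4-367 and tlh2 in mis4+, and both depend on the normalization, as described with each gene. With quantile normalization over the S. pombe genes, the calls among all genes were 828 higher and 837 lower in mis4-367, in place of 966 and 667, and 847 higher and 834 lower in mis4+, in place of 968 and 633.

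**Figure D1:**
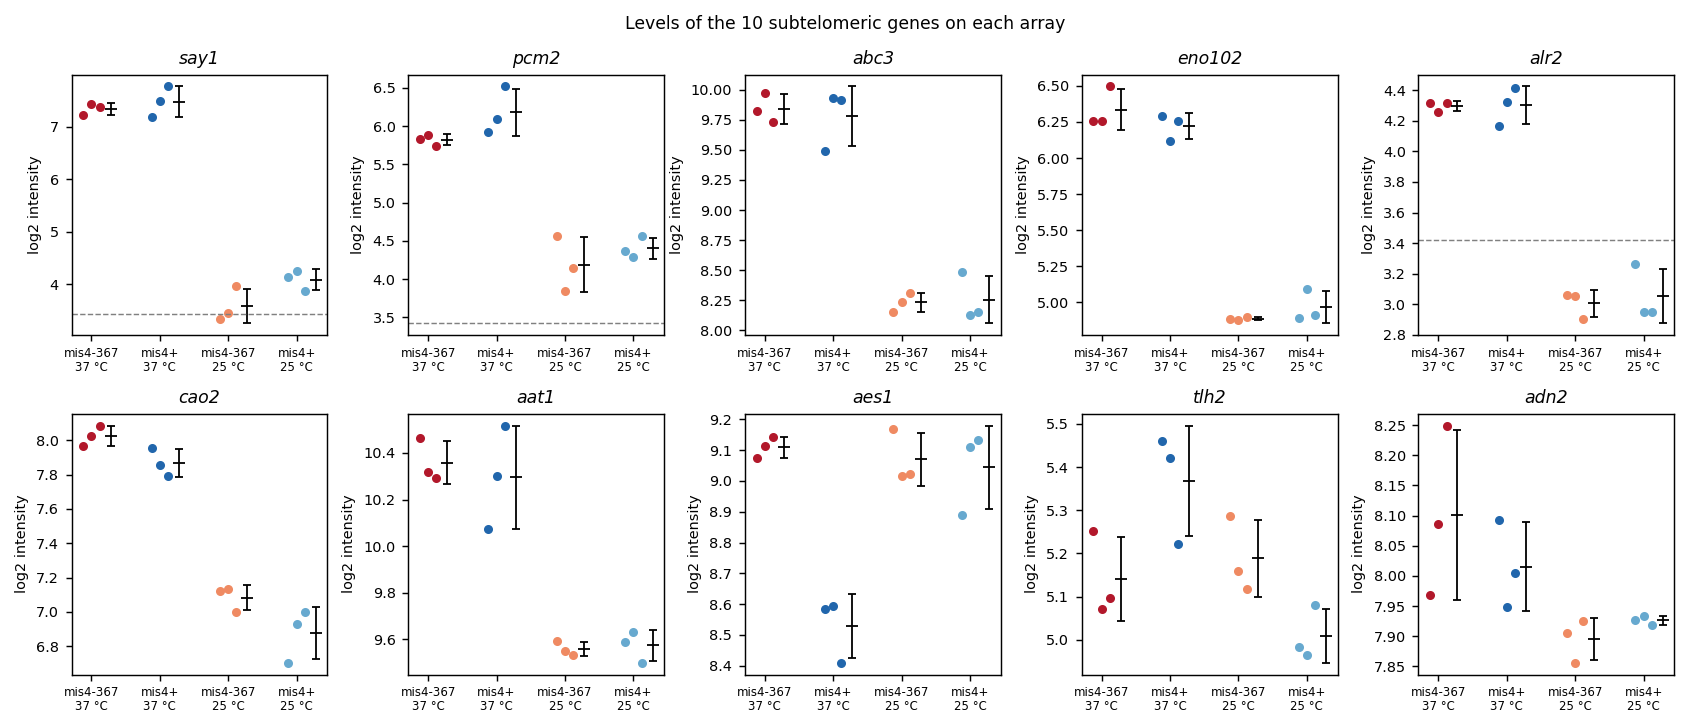
Log2 intensity of the 10 genes on each of the 12 arrays, in 1 panel per gene with its own vertical scale; points are arrays in the order of replicates, black marks are the mean and SD of 3 arrays, and the dashed line, where it falls in range, is the background level of 3.42. The 7 genes that rose in both strains have their 37 °C arrays well above their 25 °C arrays, while the lowest arrays of aes1 are those of mis4+ at 37 °C.

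The change of say1, at the right end of chromosome II (SPBPB2B2.02, gene 21 from the end), was the largest rise of all 2896 genes in each strain on the deposited scale. This place is a description too, since say1 was chosen with earlier results of these data known. Its intensities in mis4-367 were 149, 174 and 166 at 37 °C, against 10.1, 10.9 and 15.5 at 25 °C. In mis4+ they were 146, 179 and 218 at 37 °C, against 17.5, 19.1 and 14.6 at 25 °C. Every 37 °C array lay far above every 25 °C array of its strain, and 1 array of mis4-367 at 25 °C was below the background level. The log2 change was 3.76 ± 0.17 in mis4-367 (SE, 13.6-fold, adjusted p = 5.34e-09) and 3.40 ± 0.17 in mis4+ (SE, 10.6-fold, adjusted p = 1.52e-08). On the log2(value + 16) scale, which damps dim signals, the changes were 2.67 in mis4-367 and 2.56 in mis4+, and both passed.

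The repair methyltransferase gene pcm2 (SPAC869.08) was the single one of the 10 on chromosome I, gene 25 from its right end. Its intensities in mis4-367 were 57.0, 59.0 and 53.5 at 37 °C, against 23.6, 14.4 and 17.8 at 25 °C. In mis4+ they were 60.6, 68.5 and 91.6 at 37 °C, against 20.6, 19.6 and 23.5 at 25 °C. The temperatures did not overlap in either strain, and the highest value was on replicate 3 of mis4+ at 37 °C, the array that stood apart. The log2 change was 1.63 ± 0.17 in mis4-367 (SE, 3.1-fold, adjusted p = 5.86e-06) and 1.77 ± 0.17 in mis4+ (SE, 3.42-fold, adjusted p = 3.31e-06), and 1.61 in mis4+ without that array.

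Of the 10 genes, 5 lie at the left end of chromosome II, and 4 of them rose. The enolase gene eno102 (SPBPB21E7.01C, gene 19 from the end) had intensities of 76.3, 76.5 and 90.3 in mis4-367 at 37 °C, against 29.5, 29.4 and 29.8 at 25 °C. In mis4+ its intensities were 78.2, 69.5 and 76.4 at 37 °C, against 29.7, 34.1 and 30.1 at 25 °C. The temperatures did not overlap, with log2 changes of 1.45 ± 0.08 in mis4-367 (SE, adjusted p = 1.76e-08) and 1.26 ± 0.08 in mis4+ (SE, adjusted p = 7.21e-08). The other enolase gene eno101 had log2 changes of 0.08 in each strain, neither past the test (adjusted p = 0.184 in mis4-367 and 0.162 in mis4+).

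Farther in on the same end, beyond aes1, lie 3 of the genes close together: alr2 is gene 34, aat1 gene 35 and abc3 gene 37. The racemase gene alr2 (SPBC359.02) had intensities of 19.9, 19.1 and 19.9 in mis4-367 at 37 °C, against 8.33, 8.30 and 7.49 at 25 °C. In mis4+ they were 18.0, 20.0 and 21.3 at 37 °C, against 9.58, 7.73 and 7.74 at 25 °C. All 6 arrays at 25 °C were below the background level, so its rise is a bound: at least 1.83-fold in mis4-367 and at least 1.84-fold in mis4+. These bounds set the 37 °C mean over the background level and were not tested. Its measured log2 means were 4.30 in mis4-367 at 37 °C against 3.01 at 25 °C, and 4.30 in mis4+ at 37 °C against 3.05 at 25 °C. The limma test used the measured values, those below background included (adjusted p = 1.41e-07 in mis4-367 and 2.34e-07 in mis4+). The racemase relative alr1, whose gene lies elsewhere, rose by less, with log2 changes of 0.40 in mis4-367 and 0.43 in mis4+ (adjusted p = 0.000338 and 0.000198).

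The transporter gene aat1 (SPBC359.03C) had intensities of 1412, 1279 and 1253 in mis4-367 at 37 °C, against 772, 749 and 742 at 25 °C. In mis4+ they were 1077, 1262 and 1463 at 37 °C, against 771, 794 and 724 at 25 °C. It rose by 0.80 ± 0.09 in mis4-367 (SE, log2, adjusted p = 1.21e-05) and by 0.72 ± 0.09 in mis4+ (SE, log2, adjusted p = 3.06e-05), without overlap. Other amino acid permease genes did not share one direction. Of those at the right end of chromosome I, isp5 fell by 1.51 in mis4-367 and 1.14 in mis4+. The proline permease gene put4, at the same end, fell by 1.82 in mis4-367 and 1.69 in mis4+ (log2, largest adjusted p of these 4 changes 2.34e-07). In the same family per1 fell by 0.57 in mis4-367 and 0.75 in mis4+, and cat1 rose by 0.20 in mis4-367 and 0.26 in mis4+. The cat1 call in mis4-367 was lost when any array of that strain other than replicate 3 at 37 °C was left out (adjusted p between 0.0534 and 0.131), and with the replicate block (adjusted p = 0.053).

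The vacuolar transporter gene abc3 (SPBC359.05) had intensities of 905, 1006 and 848 in mis4-367 at 37 °C, against 285, 301 and 318 at 25 °C. In mis4+ they were 722, 978 and 964 at 37 °C, against 357, 280.1 and 285 at 25 °C. The temperatures did not overlap, and within mis4+ replicate 1 was the lowest at 37 °C and the highest at 25 °C. The log2 change was 1.61 ± 0.12 in mis4-367 (SE, 3.05-fold, adjusted p = 4.19e-07) and 1.53 ± 0.12 in mis4+ (SE, 2.88-fold, adjusted p = 7.21e-07). Other iron genes did not share one direction: of 10 measured, 1 was higher and 3 lower in mis4-367, and 3 were higher and 3 lower in mis4+. These calls were 40% of the list in mis4-367 and 60% in mis4+, beside 56.4% and 55.3% of all measured genes. The siderophore synthesis gene sib1 rose by 0.80 in mis4-367 and 0.98 in mis4+, while the transporter gene str1 fell by 0.79 in mis4-367 and 0.72 in mis4+ and the reductase gene frp1 by 1.06 and 0.46 in the same strains (log2, all past the test). The frp1 call in mis4+ was lost without replicate 1 at 25 °C (adjusted p = 0.0539), and its value was -0.30 without replicate 1 at 37 °C. The measured ABC transporter relatives went different ways. The heavy metal tolerance gene hmt1 rose by 0.48 in mis4-367 (adjusted p = 0.000258) and 0.52 in mis4+ (adjusted p = 0.000148), and the multidrug resistance gene pmd1 fell by 0.26 in mis4-367 (adjusted p = 0.011) and 0.37 in mis4+ (adjusted p = 0.00148). The values of abc1, abc2 and abc4 were -0.19, 0.01 and -0.12 in mis4-367, none past the test, and -0.29, -0.11 and -0.16 in mis4+, where abc1 and abc4 passed. The abc1 call was lost when any array of mis4+ other than replicate 3 at 37 °C was left out (adjusted p between 0.0565 and 0.1002), and the abc4 call without replicate 1 of mis4+ at 25 °C (adjusted p = 0.0827) or with quantile normalization (adjusted p = 0.0636).

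At the right end of chromosome II, cao2 (SPBC1289.16C, gene 30 from the end) had intensities of 250.04, 261 and 271 in mis4-367 at 37 °C, against 139, 140.2 and 128 at 25 °C. In mis4+ they were 248, 232 and 221 at 37 °C, against 104, 122 and 128 at 25 °C. It rose by 0.94 ± 0.07 in mis4-367 (SE, log2, adjusted p = 6.24e-07) and 0.99 ± 0.07 in mis4+ (SE, log2, adjusted p = 4.85e-07), or 1.92-fold and 1.99-fold, without overlap. Its family member cao1 did not pass, at -0.10 in mis4-367 and -0.03 in mis4+.

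The adhesion factor gene adn2 (SPBC1289.10C, gene 37 from that end) had the narrowest range of group means of the 10, 0.21 on the log2 scale. Its intensities in mis4-367 were 251, 272 and 304 at 37 °C, against 239.7, 232 and 243 at 25 °C. In mis4+ they were 273, 247 and 257 at 37 °C, against 243, 245 and 242 at 25 °C. The change was 0.21 ± 0.06 in mis4-367 (SE, log2, adjusted p = 0.016) and 0.09 ± 0.06 in mis4+ (SE, log2, adjusted p = 0.258), and the difference between the strains' responses did not pass (0.12, adjusted p = 0.84). The call in mis4-367 was lost without its replicate 3 at 37 °C (adjusted p = 0.069), without its replicate 2 at 25 °C (adjusted p = 0.0593) or with quantile normalization over the S. pombe genes, where the change was 0.12 (adjusted p = 0.135). The relative adn3 rose by 0.22 in mis4-367 (adjusted p = 0.00646) and stood at 0.07 in mis4+ (adjusted p = 0.321); its call in mis4-367 was also lost with quantile normalization (adjusted p = 0.131).

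**Figure D2:**
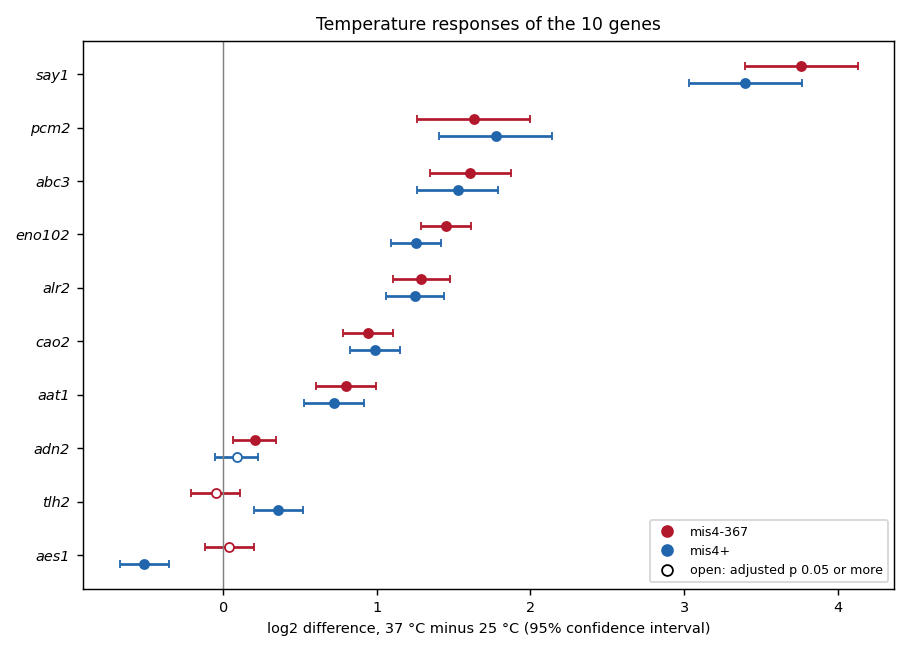
Log2 difference between 37 °C and 25 °C for each of the 10 genes, in mis4-367 (red, above) and in mis4+ (blue, below), with 95% confidence intervals from limma; filled points have adjusted p under 0.05. The intervals of the strains lie apart for aes1, at 0.04 in mis4-367 and -0.51 in mis4+, and for tlh2, at -0.05 in mis4-367 and 0.36 in mis4+, and overlap for the other 8; neither difference passed its own test after adjustment.

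The gene aes1 (SPBPB21E7.07, gene 25 from the left end of chromosome II) lies between eno102 and alr2, both of which rose, and did not rise in either strain. Its intensities in mis4-367 were 539, 554 and 565 at 37 °C, against 575, 518 and 520.4 at 25 °C. In mis4+ they were 384, 386 and 340.1 at 37 °C, against 474, 553 and 561 at 25 °C. The 3 arrays of mis4+ at 37 °C were the lowest of all 12, and the other 3 groups overlapped one another. In mis4-367 its change of 0.04 ± 0.07 did not pass (SE, log2, adjusted p = 0.668). In mis4+ aes1 fell by 0.51 ± 0.07 (SE, log2, 1.43-fold, adjusted p = 8.98e-05).

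Between the strains at 37 °C, 1 of the 10 genes was called, aes1, where 7.18% of all genes were called, 1.73% higher and 5.46% lower. The direction of those calls depends on scaling: 50 were higher and 158 lower as deposited, 80 and 108 after re-centring on the S. pombe median, and 88 and 88 after quantile normalization. The log2 difference was 0.58 (95% confidence interval 0.42 to 0.74, adjusted p = 0.00298), the highest of all 2896 genes on the deposited scale, a result that was known when the gene was chosen. It passed in all 15 alternatives run, with values of 0.52 to 0.62. Replicate 3 of mis4+ at 37 °C lay 0.18 below its 2 fellow replicates' mean for this gene (log2), and without it the difference was 0.52 (adjusted p = 0.00855). At 25 °C the strains differed by 0.03 (95% confidence interval -0.13 to 0.19, adjusted p = 0.941). The difference between the temperature responses was 0.55 ± 0.10 (SE, 95% confidence interval 0.33 to 0.78), with adjusted p = 0.125, which did not pass. No gene of 2896 passed that test in limma, 0% in all, and 141 had an unadjusted p under 0.05; with array weights, which give noisy arrays less say, 2 passed.

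The helicase gene tlh2 (SPBCPT2R1.08C) is the outermost gene of the right end of chromosome II. Its brightest probe set, marked as shared between sequences, had intensities of 38.1, 33.6 and 34.2 in mis4-367 and of 44.0, 42.8 and 37.3 in mis4+ at 37 °C. At 25 °C they were 39.1, 35.8 and 34.7 in mis4-367 and 31.6, 31.2 and 33.8 in mis4+. The strains overlapped at 37 °C, by replicate 1 of mis4-367 and replicate 3 of mis4+, and not at 25 °C. After the shift tlh2 did not pass in mis4-367, at -0.05 ± 0.07 (SE, log2, adjusted p = 0.6), and was higher in mis4+ by 0.36 ± 0.07 (SE, log2, adjusted p = 0.00131). With quantile normalization over the S. pombe genes the value was -0.52 in mis4-367 (adjusted p = 0.00301), and in mis4+ the sign turned, at -0.19 (adjusted p = 0.2), so no direction is given for this gene.

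The strain difference of tlh2 was -0.23 ± 0.07 at 37 °C (SE, log2, adjusted p = 0.0732) and 0.18 ± 0.07 at 25 °C (SE, log2, adjusted p = 0.361), neither past the test. At 37 °C it passed without replicate 3 of mis4+ (-0.30, adjusted p = 0.0419) and with array weights (-0.34, adjusted p = 0.0105), while quantile normalization gave 0.03 (adjusted p = 0.892). The difference between the temperature responses was -0.41 ± 0.10 (SE, adjusted p = 0.824), and -0.52 with array weights (adjusted p = 0.0378).

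Which probe set is read matters for tlh2, since 4 carry its name. The brightest had a mean log2 level of 5.18 over the 12 arrays, just above the second at 5.14, which is not marked as shared. The second had intensities of 34.9, 39.5 and 26.7 in mis4-367 and of 34.2, 47.5 and 54.5 in mis4+ at 37 °C, against 31.8, 35.2 and 38.5 in mis4-367 and 31.0, 31.5 and 27.7 in mis4+ at 25 °C. Its shift was -0.08 in mis4-367 and 0.57 in mis4+, with wide spread at 37 °C. The third, also shared, ranged less, with shifts of -0.07 in mis4-367 and -0.04 in mis4+, and the dimmest lay below the background level in every group. With the mean of the 4, the shift was -0.06 in mis4-367 (adjusted p = 0.376) and 0.22 in mis4+ (adjusted p = 0.00581).

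**Figure D3:**
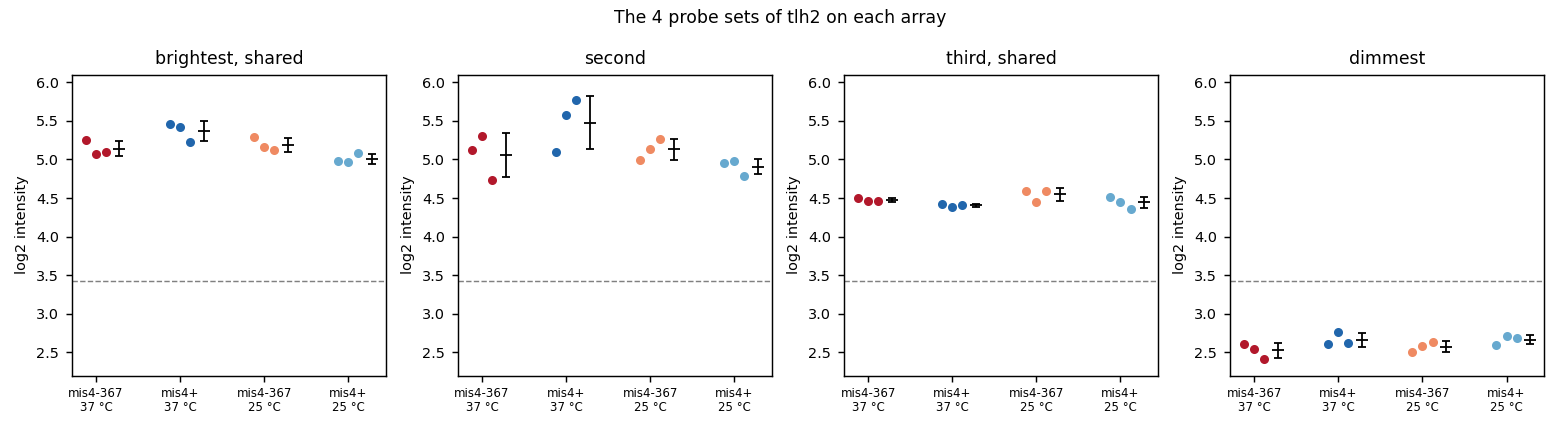
Log2 intensity of the 4 probe sets named tlh2 on each of the 12 arrays, from brightest to dimmest on 1 vertical scale; points are arrays in the order of replicates, black marks are the mean and SD of 3 arrays, and the dashed line is the background level of 3.42. Both of the brighter probe sets are highest on average in mis4+ at 37 °C, the third is nearly level and the dimmest is under the line.

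Apart from aes1, no gene of the 10 was called between the strains at either temperature. At 25 °C none of the 10 passed, with 0.622% of all genes called, all of them lower in mis4-367. The methyltransferase gene pcm2 was at -0.36 at 37 °C (95% confidence interval -0.73 to 0.01, adjusted p = 0.176), with its arrays in mis4-367 all below those in mis4+ at 37 °C, and at -0.19 without replicate 3 of mis4+. At 25 °C it was at -0.22 (adjusted p = 0.682). The amine oxidase gene cao2 was at 0.16 at 37 °C, without overlap (95% confidence interval -0.004 to 0.32, adjusted p = 0.178) and at 0.21 at 25 °C (95% confidence interval 0.04 to 0.37, adjusted p = 0.291). At 25 °C say1 was at -0.50 (95% confidence interval -0.87 to -0.14, adjusted p = 0.236), on arrays close to the background level. At 37 °C say1 was at -0.14 (adjusted p = 0.6), at 0.004 without replicate 3 of mis4+ and at 0.09 with array weights, so no direction is given.

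The remaining 5 had intervals that allow modest differences in either direction. At 37 °C they were -0.05 to 0.28 for eno102, -0.05 to 0.23 for adn2, -0.13 to 0.26 for aat1, -0.20 to 0.33 for abc3 and -0.19 to 0.18 for alr2 (log2, 95% confidence). Their adjusted p-values ran from 0.327 for eno102 to 0.978 for alr2. After quantile normalization over the S. pombe genes eno102 was at 0.28 and passed (adjusted p = 0.0409). The median strain difference of the 10 was 0.06 at 37 °C and -0.03 at 25 °C, beside -0.05 and -0.03 over all genes.

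**Figure D4:**
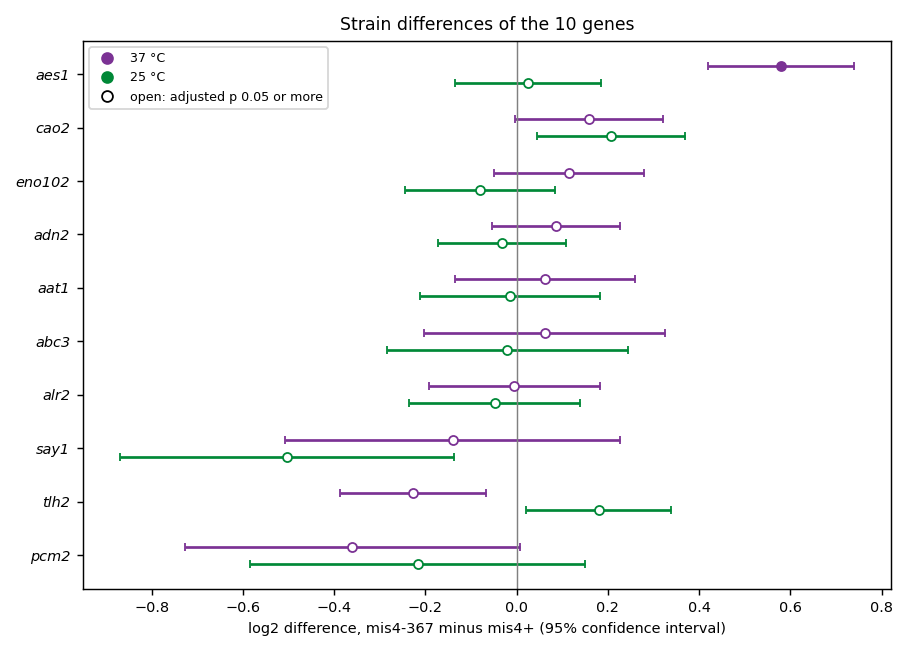
Log2 difference between mis4-367 and mis4+ for each of the 10 genes at 37 °C (purple, above) and at 25 °C (green, below), with 95% confidence intervals from limma; filled points have adjusted p under 0.05. The value of aes1 at 37 °C, 0.58, is the single filled point.

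The 160 outermost genes of these 4 ends, 40 per end, hold 32 measured genes, the 10 and another 22. None of the 10 is at the left end of chromosome I, where other measured genes include the heme transporter gene str3. Of the 22, the shift raised 11 and lowered 4 in mis4-367, and raised 12 and lowered 5 in mis4+, with median changes of 0.18 and 0.25. Called after the shift were 68.2% of the 22 in mis4-367 and 77.3% in mis4+, beside 56.4% and 55.3% of all measured genes. At 37 °C, 2 of the 22, or 9.09%, differed between the strains, where 7.18% of all genes were called, 5.46% of them as lower in mis4-367 and 1.73% as higher. Both were lower in mis4-367: str3 (-1.14, adjusted p = 0.0253) and the alpha-galactosidase gene mel1 (-0.53, adjusted p = 0.00517). The str3 call was lost when replicate 3 of mis4+ or replicate 2 or 3 of mis4-367 at 37 °C was left out (adjusted p between 0.0541 and 0.0758). It was also lost in a fit of the 37 °C arrays alone (adjusted p = 0.104). At 25 °C mel1 alone of the 22 was called (-1.15, adjusted p = 1.58e-05).

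Direct neighbours moved together in some places and apart in others. Next to pcm2 towards the end lies mel1, which rose by 2.81 in mis4-367 and 2.19 in mis4+, and 2 genes away on the other side lies put4, which fell. Beside abc3, mug14, a gene named for its rise in meiosis, rose by 1.88 in mis4-367 and 1.18 in mis4+ (adjusted p = 6.78e-07 and 3.68e-05). The nearest measured gene to say1 towards the end, 6 genes away, is the galactose gene gal7, at 0.17 in mis4-367 (adjusted p = 0.0837) and 0.24 in mis4+ (adjusted p = 0.0214), a call lost without replicate 2 of mis4+ at 25 °C (adjusted p = 0.0736), with quantile normalization (0.0906) or in a fit of the mis4+ arrays alone (0.0637), and at 0.14 without replicate 3 of mis4+ at 37 °C. Farther out, gal10 rose by 1.78 in mis4-367 and 1.81 in mis4+ and gal1 by 1.49 in each strain. On either side of adn2, the splicing factor gene spf38 rose by 0.40 in mis4-367 and 0.55 in mis4+, and tim21, of mitochondrial import, was at 0.14 in mis4-367 (adjusted p = 0.0904) and 0.30 in mis4+ (adjusted p = 0.00169). From eno102 towards the end, 4 genes away, grt1 was at 0.26 in mis4-367 (adjusted p = 0.0039) and 0.37 in mis4+ (adjusted p = 0.00043). Alternatives without a left-out array gave adjusted p up to 0.675 and 0.385 for it. From cao2 away from the end, 5 genes apart, usp109 was at 0.15 in mis4-367 (adjusted p = 0.118) and 0.23 in mis4+ (adjusted p = 0.0259). With 1 array left out, its adjusted p in mis4+ reached 0.079.

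**Figure D5:**
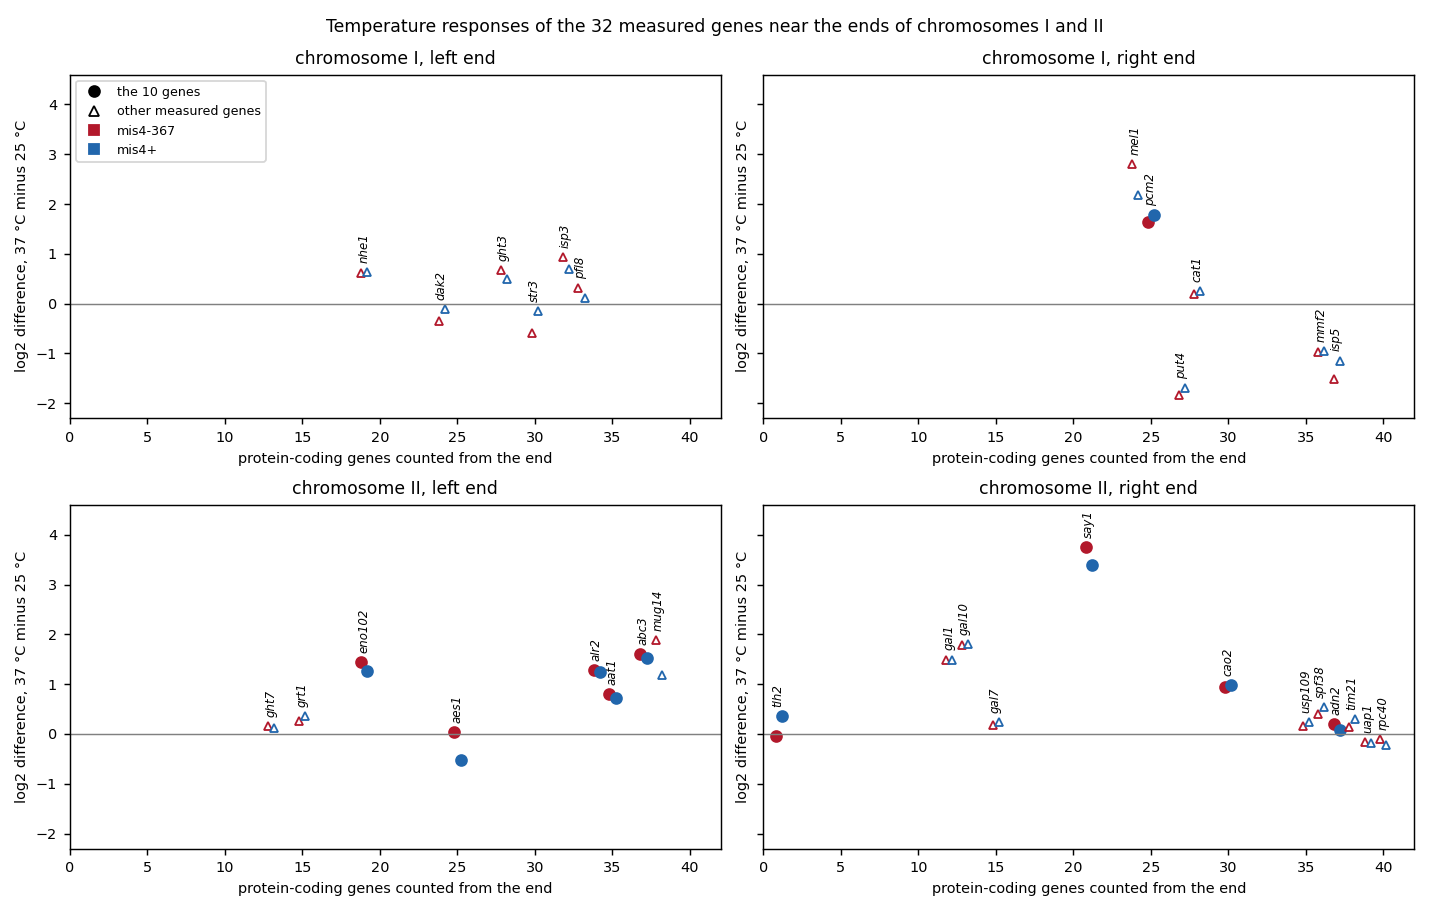
Log2 difference between 37 °C and 25 °C of the 32 measured genes among the 40 outermost protein-coding genes of each end of chromosomes I and II, by the number of genes counted from the end; circles are the 10 genes, open triangles the other 22, red is mis4-367 and blue mis4+. The 3 genes that fell furthest, put4, isp5 and mmf2, share the right end of chromosome I with mel1 and pcm2, which rose.

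Wider lists give the setting of these values. Of 15 measured relatives of the 10 by family, the shift raised 4 and lowered 4 in mis4-367 and raised 3 and lowered 6 in mis4+, with medians of 0.01 and -0.03, and none differed between the strains at either temperature. After the shift 53.3% of the relatives were called in mis4-367 and 60% in mis4+, beside 56.4% and 55.3% of all measured genes. The helicase relative rqh1 was at 0.11 in mis4-367 and 0.05 in mis4+, neither past the test, and tlh1 was not analysed here. Of 24 measured factors of subtelomere silencing, 12 rose and none fell in mis4-367 after the shift, 13 rose and none fell in mis4+, and the rest did not pass. These calls, all higher, were 50% of the 24 in mis4-367 and 54.2% in mis4+. Among all measured genes 33.4% were called higher in each strain. Called lower were 23% of all measured genes in mis4-367 and 21.9% in mis4+, or 56.4% and 55.3% in either direction. The list was chosen with earlier results of these data known, and its difference from all genes was not tested. At 37 °C, 2 of the 24 were lower in mis4-367 and none higher, and at 25 °C none passed. The 2 are 8.33% of the list, where 5.46% of all genes were called lower at 37 °C and 7.18% in either direction.

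Likeness of pattern was measured as the root mean square difference of log2 values over the 12 arrays, after the mean of each gene was subtracted, and it was read for the 4 genes with the widest range of group means. The genes nearest to say1 were ppk31 (0.46), tms1 (0.56) and hop1 (0.56), all far from it because none rose as much. Nearest to pcm2 were mug130 (0.17), mug125 (0.20) and gal10 (0.20), the last of them also subtelomeric. Nearest to abc3 were sro1 (0.16), ght6 (0.16) and mug35 (0.17), and nearest to eno102 were rsd1 (0.11), the unnamed gene SPAC1002.07C (0.15) and gmh1 (0.15). For aes1, looked up after its values were seen, they were dss1 (0.12), ppp1 (0.13) and pfd3 (0.13). Their differences between mis4-367 and mis4+ at 37 °C were 0.49, 0.38 and 0.30, values that choosing them for likeness to aes1 on the same arrays largely fixes, so no test is given. None of them is among the 40 outermost genes of an end.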

How the data were processed

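Total RNA was hybridised to 12 oligonucleotide arrays, 3 per group, from 3 independent cultures of each strain. The authors deposited 1 intensity per array and probe set, made with RMA, per the submitters' processing notes; the values reach 12169, so they are on a linear scale; no source used here says how RMA's log2 values became linear. The method gives all arrays 1 distribution, so it flattens broad shifts and understates folds of dim genes. All 12 columns were assigned by name. Intensities were put on the log2 scale. Of 10928 probe sets, 2914 match 1 S. pombe gene of the reference table (ASM294v3, used for names and gene order), and the brightest per gene gave 2896 genes. The background level is the 95th percentile of 12-array means of 2601 probe sets with gene names of another yeast, in capitals.

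The 4 group means were fitted in limma 3.58.1 (R 4.3.3) without a block, and p-values were adjusted over 2896 genes by Benjamini-Hochberg; "higher", "rose" and the like mean adjusted p under 0.05. The step was tested on simulated data. Arrays give no read depth; their number limits the precision (median SE of a log2 difference 0.0652). Alternatives were re-centring, quantile normalization, all probe sets averaged, a filter on dim genes, log2(value + 16), the compared groups only, array weights, 2 kinds of replicate block and each array left out. Members and lists were chosen with earlier results of these data known. Named were the 10 genes and the nearest measured gene on each side of them, within 10 genes. Other subtelomeric genes called between strains, closest relatives, and for 4 genes the 3 nearest in pattern were named too. The genes sib1, str1, frp1, isp5, per1, cat1, hmt1, pmd1, mmf2, gal1 and those nearest to aes1 were named after their values were seen. Figures were drawn with matplotlib 3.10.9.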

Additional observations from a re-analysis of the deposited data

Results flagged for a closer look

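The temperature response of aes1 was noted because all 3 arrays of mis4-367 at 37 °C lay above the 25 °C mean of their strain and all 3 arrays of mis4+ at 37 °C lay below theirs. In mis4-367 the margin was slight: replicate 1 was at 539 against a 25 °C mean of 537. The change in mis4-367, 0.04, did not pass in limma (adjusted p = 0.668), so no rise is claimed there. The difference between the responses, 0.554 on the log2 scale, was tested as an interaction in limma and did not pass (adjusted p = 0.125). Over the alternatives without a left-out array its adjusted p ran from 0.058 to 0.533, and with each array left out in turn from 0.0741 to 0.51.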

How the results depend on the processing

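Of 800 values of the 10 genes under alternatives, 788 kept their side of the threshold, 8 gained a call, 3 lost one and 1 turned round: tlh2 after the shift in mis4+, at -0.19 after quantile normalization. Among the 788, 40 values, called in neither setting, had the other sign. For the strains at 37 °C, where 208 genes were called on the deposited scale, 10 were called in a fit of the 37 °C arrays alone, 474 with array weights and 22 (without mis4-367 replicate 2) to 566 (without mis4+ replicate 2) with 1 array left out. Of the 10 genes, 2 were called with quantile normalization (aes1 and eno102), 2 with array weights (aes1 and tlh2) and 1 to 2 with 1 array left out. At 25 °C, in place of 18 genes, 3 were called with quantile normalization, 154 in a fit of the 25 °C arrays alone, 496 with array weights and 5 to 14 with 1 array left out; array weights called 3 of the 10 (say1, cao2 and tlh2). For the difference of responses, array weights called 2 genes, tlh2 among them (1 of the 10), and leaving out 1 array called 0 to 1. With 1 array left out, 7 to 8 of the 10 passed after the shift in mis4-367 and 9 in mis4+. In the same fits 1439 to 1581 of all 2896 measured genes passed in mis4-367 and 1357 to 1734 in mis4+. The replicate block gave 181 and 26 genes for the strains at 37 °C and 25 °C, 1630 and 1587 for the shift in mis4-367 and mis4+, and changed no call of the 10. Same-numbered arrays before and after the shift correlated by 0.061 to 0.09 in mis4-367, each best with its own number, and by -0.088 to 0.03 in mis4+ (deviations from group means). Between strains they correlated by -0.383 to 0.183. Same-numbered arrays of a strain may share a culture, but the labels state no block and the main fit took none. With culture as a random block (correlation 0.0082), the shift gave 1635 genes in mis4-367 and 1605 in mis4+, and no call of the 10 changed. The causes of these changes were not tested.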
